A study of Mus musculus with 9 samples.

Results

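The cytosolic sulfotransferases described here are 9 mouse genes, Sult1e1, Sult2a1, Sult2a3, Sult2a4, Sult2a5, Sult2a7, Sult1a1, Sult1b1 and Sult1d1, measured in liver on Affymetrix whole-transcript arrays. A gene entered through a probe set annotated with that gene symbol alone, and each of the 9 had exactly 1 such probe set among the 22180 genes measured. Another 12 Sult genes were on the arrays and serve for comparison. The genes were chosen by the measured difference between double KO and control livers, which an earlier look at these arrays had shown to be high for several of them, together with relatives in the same family. Values of the 9 genes in that comparison are therefore given as a description, with no test. Livers of the double KO group were without both nuclear receptor corepressors, SMRT and NCoR, and those of the SMRT KO group were without SMRT. Control mice had both genes floxed and are described as double-floxed. Each group had 3 individual mice, all female, euthyroid, 7 to 9 weeks old, of mixed 129SV/B6 background and on standard chow. The promoter that drove the liver deletion, and the NCoR allele of the SMRT KO mice, are not given in the sources used here. Loss of NCoR alone was not analysed here, and its loss can be read only in livers that also lack SMRT.

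Sulfotransferases of this family move a sulfonate group from the donor PAPS onto hydroxyl groups of steroids, bile acids, phenols and amines. Sulfated steroids are more soluble in water and no longer bind their receptors, so the enzymes lower the activity of hormones and help to clear them from the body. Sult1e1 is the estrogen sulfotransferase, the Sult2a enzymes act on hydroxysteroids such as DHEA and on bile acids, and the Sult1a, Sult1b and Sult1d enzymes act mainly on phenols, thyroid hormones and catechols. In mice several Sult2a genes are expressed more in female than in male liver. SMRT and NCoR hold target genes of nuclear receptors at a low level when no activating ligand is bound.

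The Sult2a genes lie side by side and resemble each other in sequence, and stretches of their promoters are shown because Sult2a5, Sult2a4 and Sult2a3 were higher in double KO livers, while Sult2a6, which is not among the 9 genes, was near background in every liver. RefSeq promoter windows of assembly GRCm38.p6, with 250 bases before and 50 after the annotated start, were found for 7 of the 9 genes. Sult2a1 and Sult2a7 had none and were not searched. The lines give 110 bases 5′ to 3′ on the gene's strand, with the letters TNATGAACT in capitals, at chr7:13623796-13623905 (plus strand), chr7:13989729-13989838 (minus strand), chr7:14123133-14123242 (minus strand) and chr7:14254976-14255085 (minus strand).

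Sult2a5: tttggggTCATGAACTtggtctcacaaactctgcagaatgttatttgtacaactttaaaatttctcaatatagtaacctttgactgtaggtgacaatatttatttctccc
Sult2a4: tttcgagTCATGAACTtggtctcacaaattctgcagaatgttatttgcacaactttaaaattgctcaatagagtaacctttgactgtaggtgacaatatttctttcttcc
Sult2a3: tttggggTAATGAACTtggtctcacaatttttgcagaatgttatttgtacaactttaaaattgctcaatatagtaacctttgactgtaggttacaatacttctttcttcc
Sult2a6: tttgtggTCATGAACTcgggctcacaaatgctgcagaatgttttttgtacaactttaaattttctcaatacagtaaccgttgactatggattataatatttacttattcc

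The 3 stretches of Sult2a5, Sult2a4 and Sult2a3 were identical to each other at 91.8% to 92.7% of positions, compared base by base without gaps. Sult2a6 was identical to them at 81.8% to 84.5%. The capitals begin 164 bases before the start in Sult2a5, 243 in Sult2a4, 187 in Sult2a3 and 208 in Sult2a6. This motif was picked after these sequences had been read. On either strand it is in 0.925% of all 32851 mouse promoter windows. A match describes letters only, and Sult2a6 carries it while near background on every array.

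Sult1e1 and its chromosomal neighbour Sult1d1 are shown because Sult1e1 was higher in double KO livers and Sult1d1 was not called against SMRT KO livers. The lines give the 250 bases before the start, on the minus strand, at chr5:87591612-87591861 and chr5:87569007-87569256. Capitals mark the letters of the nuclear receptor half-site AGGTCA, read on either strand.

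Sult1e1: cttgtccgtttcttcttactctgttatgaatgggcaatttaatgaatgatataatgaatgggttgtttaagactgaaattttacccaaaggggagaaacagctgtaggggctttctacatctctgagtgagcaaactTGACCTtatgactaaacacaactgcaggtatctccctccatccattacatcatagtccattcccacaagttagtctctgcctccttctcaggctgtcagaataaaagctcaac
Sult1d1: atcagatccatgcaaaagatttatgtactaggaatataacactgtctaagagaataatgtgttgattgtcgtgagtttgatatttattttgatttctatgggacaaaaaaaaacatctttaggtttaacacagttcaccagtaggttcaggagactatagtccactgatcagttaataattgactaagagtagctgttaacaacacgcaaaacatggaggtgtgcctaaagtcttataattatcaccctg

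Sult1e1 holds the half-site once, as TGACCT, from 113 bases before the start, and Sult1d1 does not hold it in this window. The half-site is in 16.3% of all windows, and among the 7 genes with a window it is also in Sult1b1. No window of these 7 genes holds TTCNNNGAA, the letters of the STAT5 motif, or CACGTG, the E-box, which are in 8.30% and 7.15% of all windows. Sult1b1 also holds the AP-1 letters TGACTCA (5.20% of all windows) and the HNF4 letters CAAAGTCCA (0.475%). Pairs of AGGTCA in the same direction, 1 or 4 bases apart, which by construction also count as half-sites, were in 0 of the 7 genes with a window. They were in 0.0396% and 0.0152% of all windows. AGGTCA followed directly by its reverse complement was in 0 windows. The pairs were searched with exact half-sites only, so copies with changed letters were not counted. These counts cannot tell whether inexact pairs are present. In the stretches printed above, TGAACT directly follows GGGTCA in Sult2a5 and TGGTCA in Sult2a6. Each of these differs in 1 letter from AGGTCA or its reverse complement. In Sult2a4 and Sult2a3 the letters before TGAACT are GAGTCA and GGGTAA, which differ more. How often such inexact letters occur over all windows was not counted. Every motif was searched on both strands.

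Values are log2 intensities normalized together by RMA, and 1 unit is a doubling. A value was marked near background when it was at or below the 95th percentile of 1394 olfactory and vomeronasal receptor genes on the same array, which lay between 5.91 and 6.22. By this limit 18 of the 81 values of the 9 genes were near background, in 4 genes. Where every array of a group was near background, the fold change against it is given as a lower bound, computed against the limit. Hepatocyte markers (9 of 10 measured, such as Alb and Ttr) averaged 12.59 to 12.62 in double KO, 12.71 to 12.79 in SMRT KO and 12.74 to 12.80 in control livers, with the double KO range below the others. The genotypes were not checked on these arrays. The Sult2a genes are close paralogs, and how far the probes of one gene also bind RNA of another was not tested. In whole liver, fewer cells of a type and less RNA per cell cannot be told apart.

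Sult1e1, which inactivates estradiol by sulfation, was measured above background in double KO livers alone. It stood at 7.33, 8.70 and 8.84 in the 3 double KO livers, at 4.40, 4.20 and 3.96 in SMRT KO livers and at 4.66, 4.67 and 5.56 in control livers. The double KO values lay above all others, and replicate 1 was the lowest of them. The SMRT KO and control values were all near background, so they have no order and no fold is given between those groups (adjusted p = 0.853 by limma). Double KO livers averaged 8.29 ± 0.84, against 4.19 ± 0.22 in SMRT KO livers (SD, n = 3 each). The fitted log2 difference was 4.10 with a standard error of 0.38, an adjusted p of 0.00204 by limma and a lower bound of at least 4.95-fold. Against control livers, at 4.96 ± 0.52, the fitted log2 difference was 3.32 and the bound at least 4.61-fold.

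Sult2a3 and Sult2a7, members of the hydroxysteroid group, were also higher in double KO livers. Sult2a3 stood at 10.06, 10.30 and 9.30 in double KO livers, at 6.50, 8.06 and 6.16 in SMRT KO livers and at 6.20, 5.67 and 5.97 in control livers. SMRT KO replicate 2 lay well above the other SMRT KO livers but below every double KO liver, and the 3 control values were near background. SMRT KO replicates 1 and 3 were not far above the limits of their arrays (6.02 and 5.91). Sult2a3 rose 7.90-fold in double KO against SMRT KO livers (log2 difference 2.98, standard error 0.45, adjusted p = 0.0148 by limma), and it was at least 13.96-fold higher in double KO than in control livers. The call against SMRT KO livers was lost without double KO replicate 1 (adjusted p = 0.0650), without double KO replicate 2 (0.0823), without SMRT KO replicate 1 (0.0690) and when control livers were left out (0.0748), and over all alternatives the adjusted p ranged between 0.00326 and 0.0823. Values overlapped between SMRT KO livers, at 6.91 ± 1.02, and control livers, at 5.95 ± 0.27 (SD, n = 3 each), and the fitted log2 difference of 0.96 did not pass (adjusted p = 0.845 by limma).

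Sult2a7, like Sult1e1, was above background in the double KO livers alone. Its values were 7.24, 7.75 and 6.37 in double KO livers, 3.996, 4.38 and 4.46 in SMRT KO livers and 3.78, 4.31 and 4.03 in control livers. Double KO replicate 3 lay closest to the background limit. Sult2a7 rose in double KO against SMRT KO livers with a fitted log2 difference of 2.84 (standard error 0.30, adjusted p = 0.00339 by limma) and a bound of at least 2.20-fold. In double KO against control livers the fitted log2 difference was 3.08 and the bound at least 2.05-fold.

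**Figure D1:**
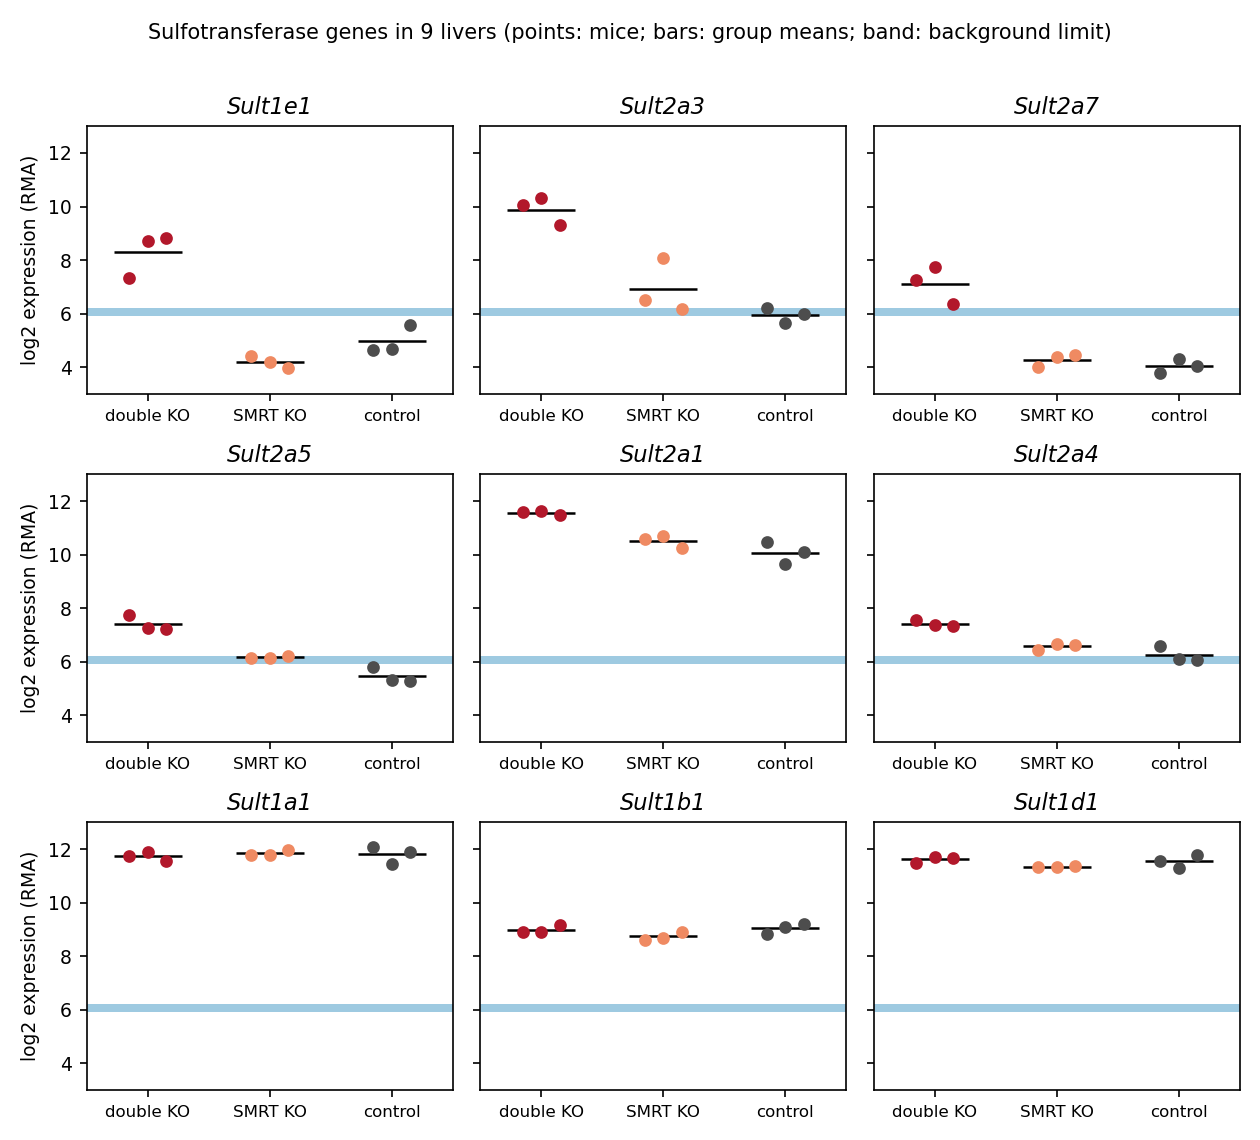
Log2 RMA expression of the 9 sulfotransferase genes (vertical axis) in double KO, SMRT KO and control livers, with 1 point per mouse, a bar at each group mean and a band for the range of the background limit over the arrays (5.91 to 6.22). Sult1e1 and Sult2a7 lie above the band in the double KO group alone, and the 3 panels of Sult1a1, Sult1b1 and Sult1d1 show groups close together.

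In the panels of values by mouse, the SMRT KO means of Sult2a5, Sult2a1 and Sult2a4 lay between the means of the double KO and control groups. Sult2a5, another hydroxysteroid sulfotransferase, stood at 7.74, 7.24 and 7.24 in double KO livers, at 6.16, 6.12 and 6.22 in SMRT KO livers and at 5.80, 5.32 and 5.28 in control livers. No group overlapped another, and all 3 control values were near background. The SMRT KO values were just above the limits of their arrays (5.91 to 6.02), so the fold against them rests on values close to background. Sult2a5 rose 2.36-fold in double KO against SMRT KO livers (log2 difference 1.24, standard error 0.16, adjusted p = 0.00815 by limma) and was at least 2.502-fold higher in double KO than in control livers. Between SMRT KO and control livers the fitted log2 difference was 0.70 (95% interval 0.33 to 1.07), which did not pass (adjusted p = 0.456) and whose bound was at least 1.06-fold.

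Sult2a1, which sulfates DHEA and bile acids, was well above background in all 9 livers. It stood at 11.58, 11.63 and 11.48 in double KO livers, at 10.60, 10.71 and 10.26 in SMRT KO livers and at 10.46, 9.63 and 10.09 in control livers. Every double KO value was above every other value, while SMRT KO and control values overlapped. Sult2a1 rose 2.06-fold in double KO against SMRT KO livers (log2 difference 1.04, standard error 0.19, adjusted p = 0.0357 by limma), and it was 2.83-fold higher in double KO than in control livers. The call against SMRT KO livers was lost in 9 of 17 alternatives, in a range of 0.0128 to 0.146. These were leaving out double KO replicate 1 (adjusted p = 0.122), 2 (0.146) or 3 (0.105), SMRT KO replicate 1 (0.104), 2 (0.0590) or 3 (0.105), or control replicate 3 (0.0687), the replicate block (0.0583) and the adjustment over all probe sets (0.0955). For SMRT KO against control livers the log2 difference was 0.46 (95% interval 0.04 to 0.88, adjusted p = 0.826).

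Sult2a4, of the same group, had the smallest called difference. It stood at 7.57, 7.37 and 7.34 in double KO livers, at 6.46, 6.65 and 6.61 in SMRT KO livers and at 6.60, 6.11 and 6.05 in control livers. The double KO values again lay above all others, and control replicates 2 and 3 were just above the background limit. The SMRT KO values were not far above the limits of their arrays (5.91 to 6.02). Sult2a4 rose 1.81-fold in double KO against SMRT KO livers (log2 difference 0.85, standard error 0.14, adjusted p = 0.0229 by limma) and was 2.25-fold higher in double KO than in control livers. Without double KO replicates 1, 2 or 3 the adjusted p was 0.0928, 0.0900 and 0.0619, without SMRT KO replicates 1, 2 or 3 it was 0.0953, 0.0551 and 0.0649, and over all probe sets it was 0.0662. The call was thus lost in 7 of 17 alternatives, in a range of 0.00554 to 0.0953. Set against control livers, SMRT KO livers had a log2 difference of 0.32 (adjusted p = 0.830).

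Sult1a1, Sult1b1 and Sult1d1, which act mainly on phenols, iodothyronines and catecholamines, were called neither in double KO against SMRT KO nor in SMRT KO against control livers. Sult1a1 stood at 11.74, 11.88 and 11.57 in double KO livers, at 11.79, 11.79 and 11.98 in SMRT KO livers and at 12.10, 11.44 and 11.90 in control livers, with all groups overlapping. Its log2 difference in double KO against SMRT KO livers was -0.12 (95% interval -0.47 to 0.22, adjusted p = 0.864). Sult1b1 stood at 8.92, 8.92 and 9.15 in double KO livers, at 8.61, 8.70 and 8.91 in SMRT KO livers and at 8.84, 9.11 and 9.21 in control livers. The SMRT KO mean was the lowest of the 3, and the double KO values lay just above it with no overlap (log2 difference 0.26, 95% interval -0.01 to 0.52, adjusted p = 0.493). Sult1d1 stood at 11.50, 11.72 and 11.66 in double KO livers, at 11.32, 11.34 and 11.36 in SMRT KO livers and at 11.57, 11.32 and 11.80 in control livers. Its double KO values did not overlap the SMRT KO values either (0.29, 95% interval 0.03 to 0.54, adjusted p = 0.407). In SMRT KO against control livers the log2 differences were 0.04 for Sult1a1, -0.31 for Sult1b1 and -0.22 for Sult1d1 (adjusted p = 0.989, 0.808 and 0.864).

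In double KO against SMRT KO livers, 6 of the 9 genes rose and 0 fell, where limma called 0.748% of all 22180 genes higher and 0.437% lower at an adjusted p under 0.05. The groups did not overlap, with double KO higher, in 8 of the 9 genes, against 7.54% of all genes. The median log2 difference of the 9 genes was 1.04, against 0.0017 over all genes. This comparison shares its double KO arrays with the comparison that led to the choice of the family, so the counts are no independent support. In double KO against control livers the groups did not overlap, with double KO higher, in 6 of 9 genes and in 7.73% of all genes, a count from which nothing is read because that difference chose the genes. In SMRT KO against control livers limma called 0 of the 9 genes (0.00451% of all genes), with 4 of 9 at an unadjusted p under 0.05 and 1331 of all genes. There 1 gene, Sult2a5, was higher without overlap (3.8% of all genes). The count against SMRT KO livers was 3 without double KO replicate 1, without double KO replicate 2 and without SMRT KO replicate 1. The 3 comparisons share arrays.

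**Figure D2:**
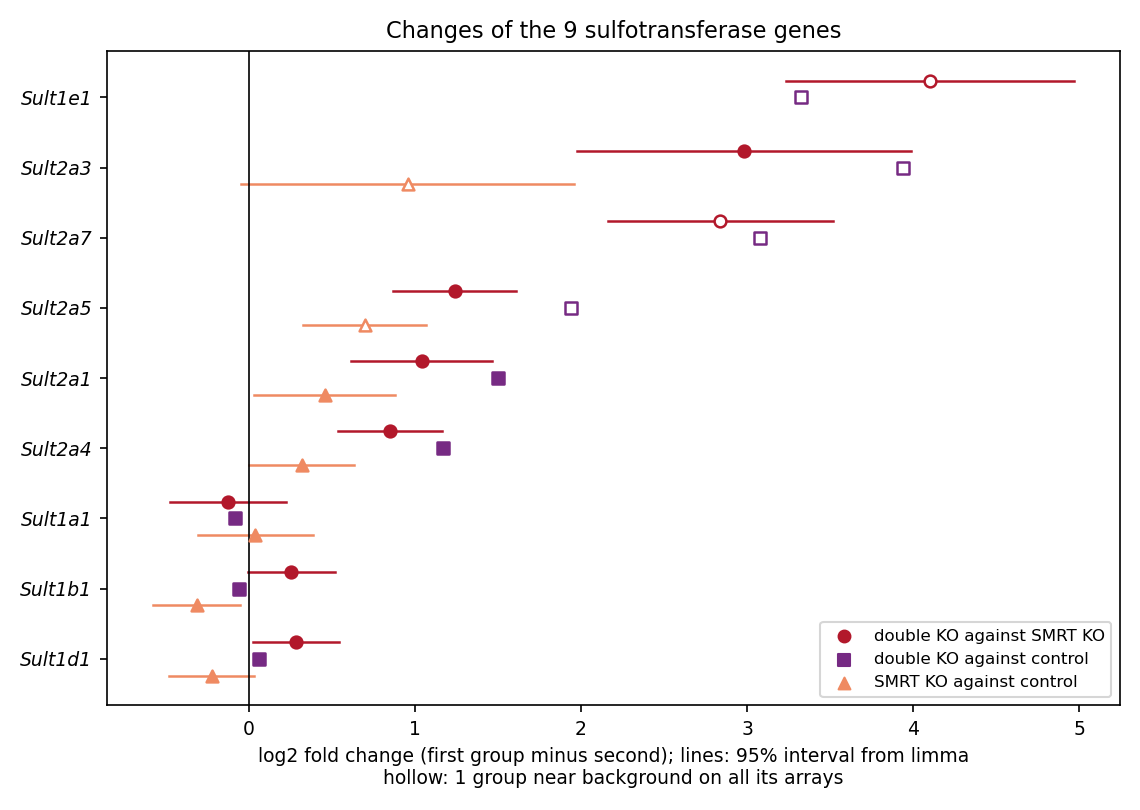
Log2 fold changes of the 9 genes (horizontal axis) for double KO against SMRT KO, double KO against control and SMRT KO against control, with 95% intervals from limma as lines for the first and the last. Hollow points have 1 group near background on all its arrays, and points with both groups near background are left out. The filled points of Sult2a5, Sult2a3 and Sult2a4 against SMRT KO livers rest partly on values not far above the limit. Among the filled points Sult2a3 has the highest value against SMRT KO livers (2.98), the hollow points of Sult1e1 and Sult2a7 rest on background values, and Sult1a1, Sult1b1 and Sult1d1 lie between -0.31 and 0.29.

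The called genes sat in 2 places in the genome. In RefSeq order along chromosome 7 the measured cluster ran Sult2a5, Sult2a2, Sult2a1, Sult2a4, Sult2a3, Sult2a6, Sult2a8 and Sult2a7. Of these 8 genes 5 rose in double KO against SMRT KO livers, and the called genes were interrupted by genes that were not called. Of the 4 measured genes on each side of the cluster (Pla2g4c, Cabp5, Bsph1 and Bsph2, then Obox7, Obox2, Obox1 and Obox3), limma called 0 of 8, with 0 at an unadjusted p under 0.05 and log2 differences of -0.20 to 0.37. On chromosome 5, Sult1b1, Sult1d1 and Sult1e1 are neighbours, and Sult1e1 was the only 1 of the 3 called in that comparison. Of the 8 flanking genes there 0 were called and 1 had an unadjusted p under 0.05, against 2323 of all 22180 genes. The flanking gene was Ugt2b37, a glucuronosyltransferase, with a log2 difference of 2.44 and an adjusted p of 0.110. Sult1a1 is also on chromosome 7, with no Sult gene among its 8 flanking genes. Of those limma called 0, with 0 at an unadjusted p under 0.05. Apart from Ugt2b37, levels of the flanking genes are not given here. A gene not expressed in liver would give no call, so these counts cannot show where a change along the chromosome ends.

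**Figure D3:**
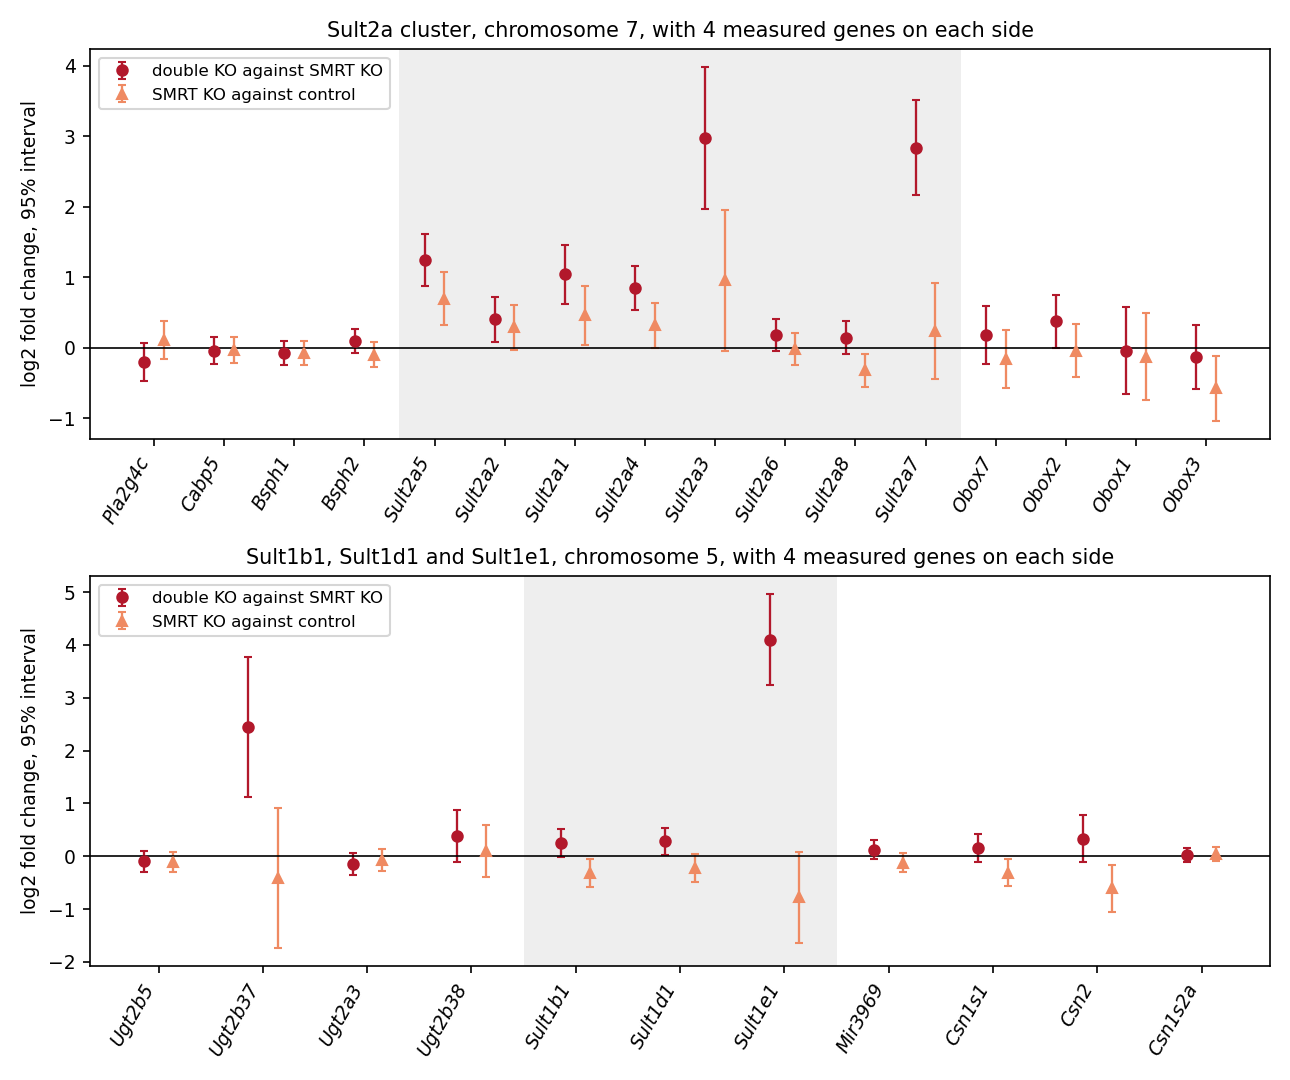
Log2 fold changes with 95% intervals (vertical axis) of the Sult2a cluster and of the Sult1b1, Sult1d1 and Sult1e1 group (shaded), with 4 measured genes on each side, in chromosomal order. Circles are double KO against SMRT KO and triangles SMRT KO against control. Sult2a3 (2.98) stands above the genes flanking its cluster (-0.20 to 0.37), for which no levels are given here. Sult1e1 is drawn at its fitted 4.10, and its lower bound of 2.31 lies below the 2.44 of the flanking gene Ugt2b37, which has a wide interval. The triangles of Sult1e1 and Sult2a7 come from groups that were both near background.

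Across the 9 livers the Sult2a genes of the set varied together, with Pearson correlations of 0.87 to 0.98 between pairs, and Sult2a4 and Sult2a5 were the closest pair. Sult1e1 correlated with them at 0.75 to 0.89. Double KO replicate 3 had the highest of its group's values for Sult1e1 and the lowest for all 5 Sult2a genes of the set. These are descriptions over 9 arrays that fall into 3 groups and were normalized together. Such correlations can come from the difference between groups alone, and the genes compared next were also required to differ between groups. All SMRT KO and control values of Sult1e1 were near background and still entered its correlations. Among 157 genes whose group means spanned at least 1 log2 unit, those most like Sult1e1 were Gask1a (r = 0.97), Synj2 (0.97), Acot11 (0.96), Lrrc19 (0.96) and Acacb (0.96). Those most like Sult2a3 were the fatty acid elongase Elovl6 (r = 0.98), the fatty acid synthase Fasn (0.96), the efflux transporter Abcc4 (0.96), Rcan2 (0.96) and the carboxylesterase Ces2a (0.95). Elovl6 averaged 12.09 in double KO, 10.58 in SMRT KO and 10.22 in control livers, and in the SMRT KO group it was highest in replicate 2, as was Sult2a3. Acacb, acetyl-CoA carboxylase beta, averaged 10.21 in double KO, 8.58 in SMRT KO and 8.90 in control livers.

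The other 12 Sult genes gave no call. Limma called 0 of 12 in double KO against SMRT KO livers (2 at an unadjusted p under 0.05), 0 in double KO against control (3) and 0 in SMRT KO against control livers (1). Over all 22180 genes the counts at an unadjusted p under 0.05 were 2323, 2389 and 1331. Sult2a2, inside the cluster, came closest. It stood at 12.44, 12.52 and 12.32 in double KO livers, at 11.95, 12.05 and 12.08 in SMRT KO livers and at 12.09, 11.45 and 11.65 in control livers. Its double KO values lay above all others, with a log2 difference of 0.40 against SMRT KO livers (adjusted p = 0.323) and 0.70 against control livers. Sult2a8, the main bile acid sulfotransferase of mouse liver, stood at 11.18, 11.15 and 11.45 in double KO livers, at 11.14, 11.28 and 10.92 in SMRT KO livers and at 11.43, 11.43 and 11.44 in control livers. Its log2 difference was 0.15 in double KO against SMRT KO livers (95% interval -0.09 to 0.39, adjusted p = 0.728) and -0.32 in SMRT KO against control livers (adjusted p = 0.753). Sult2a6 lay at 2.91 to 3.19 in double KO, 2.78 to 2.97 in SMRT KO and 2.76 to 3.06 in control livers, all near background.

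Of the genes that supply or turn over the sulfate donor, 12 of 14 listed were measured, and 1 rose and 0 fell in double KO against SMRT KO livers. This was Papss2, which makes PAPS. It stood at 12.42, 12.60 and 12.55 in double KO livers, at 11.65, 11.76 and 11.86 in SMRT KO livers and at 12.04, 11.81 and 12.18 in control livers. The groups did not overlap between double KO and either other group, and Papss2 rose 1.70-fold against SMRT KO livers (log2 difference 0.77, standard error 0.10, adjusted p = 0.00854 by limma). Against control livers its log2 difference was 0.52 (adjusted p = 0.0631), and in SMRT KO against control livers it was -0.25 (adjusted p = 0.826). The median log2 difference of the list was -0.0084 in double KO against SMRT KO livers. There 3 of 12 had an unadjusted p under 0.05 by limma, against 2323 of all 22180 genes. Papss1, which makes the same donor, had a log2 difference of 0.04 (adjusted p = 0.957).

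Among other steroid enzymes of liver, 23 of 25 were measured, and 0 rose and 1 fell in double KO against SMRT KO livers. The gene that fell was Hsd3b2, of the 3-beta-hydroxysteroid dehydrogenase family. It stood at 8.45, 8.04 and 8.29 in double KO livers, at 9.27, 9.16 and 9.41 in SMRT KO livers and at 9.51, 8.82 and 9.25 in control livers. Its log2 difference was -1.02 against SMRT KO livers (standard error 0.17, adjusted p = 0.0240 by limma) and -0.93 against control livers (adjusted p = 0.0421), where 0.32% of all genes were called lower. The list's median was -0.0168 against SMRT KO livers, close to that of all genes, but its genes differed in both directions. There 11 of 23 had an unadjusted p under 0.05 by limma, against 2323 of all 22180 genes. Without overlap, 4 were higher and 7 lower in double KO livers, against 1673 and 1378 of all genes. Against control livers 11 of 23 also had an unadjusted p under 0.05, against 2389 of all genes.

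Nuclear receptors known to regulate Sult genes gave no call, with 12 of 15 measured. Limma called 0 of 12 in double KO against SMRT KO livers (5 at an unadjusted p under 0.05), 0 in double KO against control (4) and 0 in SMRT KO against control livers (1). Of all 22180 genes, 2323, 2389 and 1331 had an unadjusted p under 0.05 in these comparisons. The receptor of estrogen, Esr1, stood at 9.59, 9.82 and 9.82 in double KO livers, at 9.31, 9.39 and 9.38 in SMRT KO livers and at 9.59, 9.14 and 9.52 in control livers. Its log2 difference against SMRT KO livers was 0.38 (adjusted p = 0.235). Nr1h4, the bile acid receptor FXR, had -0.19 against SMRT KO (adjusted p = 0.537) and -0.30 against control livers (adjusted p = 0.258).

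Of 20 other female-biased liver genes listed, 17 were measured, and 1 rose and 0 fell in double KO against SMRT KO livers. The list's median log2 difference was 0.0075, with genes on both sides of it. An unadjusted p under 0.05 by limma was found for 7 of 17, against 2323 of all 22180 genes. Without overlap, 5 were higher and 1 lower in double KO livers, against 1673 and 1378 of all genes. Against control livers 7 of 17 had an unadjusted p under 0.05, against 2389 of all genes. The called gene that rose was Slc22a27, an organic anion transporter. It stood at 9.86, 10.06 and 9.80 in double KO livers, at 8.99, 9.27 and 8.99 in SMRT KO livers and at 9.50, 9.59 and 9.69 in control livers. The SMRT KO livers were the lowest of the 3 groups, with a log2 difference of 0.82 in double KO against SMRT KO livers (standard error 0.10, adjusted p = 0.00610 by limma) and -0.51 in SMRT KO against control livers (adjusted p = 0.333).

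**Figure D4:**
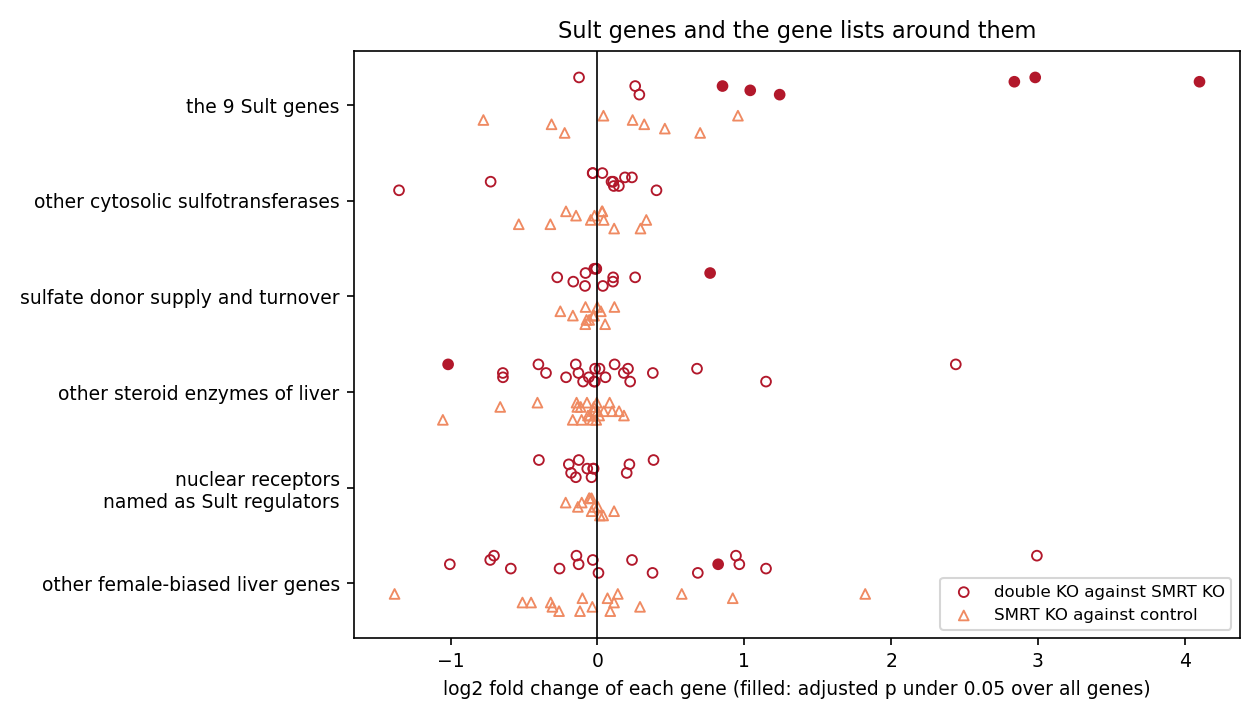
Log2 fold changes (horizontal axis) of the 9 Sult genes and of the genes of 5 lists, with 1 point per gene, for double KO against SMRT KO (circles) and SMRT KO against control (triangles). Filled points have an adjusted p under 0.05 over all genes. The 9 Sult genes hold 6 filled circles, 3 of the other lists hold 1 filled circle each, and no triangle is filled.

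Markers of liver cell types were read beside these values, and their part in the results was not tested. Of the 9 hepatocyte markers measured, 1 was called lower in double KO against control livers, Serpina1a, with a log2 difference of -0.47. The mean of the Kupffer cell markers (9 of 9 measured) was 8.33 to 8.52 in double KO, 8.55 to 8.81 in SMRT KO and 8.35 to 8.56 in control livers. In double KO against SMRT KO livers 0 of the 9 had a log2 difference above 0 (median -0.26). In SMRT KO against control livers all 9 did (median 0.29). Limma called 0 in either comparison. In each, 5 of 9 had an unadjusted p under 0.05 by limma, against 2323 and 1331 of all 22180 genes. The mean of the stellate cell markers (7 of 7) was 8.41 to 8.77 in double KO, 8.74 to 8.97 in SMRT KO and 8.78 to 8.95 in control livers. The list did not move as a whole. Lrat, a retinol-esterifying enzyme, fell in double KO against SMRT KO livers (log2 difference -1.91, adjusted p = 0.000391 by limma). Not called there were Rgs5 (-0.72), Dcn (-0.18), Des (-0.17) and Reln (-0.08), while Col3a1 (0.38) and Col1a1 (0.24) differed in the other direction and were not called either. The mean of the endothelial markers (6 of 6) was 9.16 to 9.43 in double KO, 9.25 to 9.43 in SMRT KO and 9.11 to 9.24 in control livers. Cholangiocyte markers (5 of 6) averaged 5.92 to 6.10 in double KO, 5.88 to 5.99 in SMRT KO and 5.82 to 5.96 in control livers. Lymphocyte markers (7 of 7) averaged 5.93 to 6.15 in double KO, 5.998 to 6.21 in SMRT KO and 5.94 to 5.995 in control livers, and both of these lists lay around the background limit.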

How the data were processed

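Liver RNA of 9 mice was measured, with 1 array per mouse. The deposited table gives log2 expression of 41345 probe sets. Per the submitters' processing notes these log2 values came from RMA (version not given in the sources used here), which normalizes the arrays jointly and would hide a shift common to most genes. The platform annotation gave 1 symbol to 23521 probe sets, several to 1814 and did not list 16010. Single-symbol probe sets were kept, with the highest mean over 9 arrays for the 1082 genes with several, which left 22180 genes. Symbols were compared through Entrez identifiers with RefSeq GRCm38.p6 (23328 found, 0 renamed), which also gave gene order and promoters.

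The test was limma 3.58.1, two-sided, run in R 4.3.3 through lmFit, contrasts.fit and then eBayes, in 1 model over 9 arrays with 6 residual and 3.36 prior degrees of freedom, Benjamini-Hochberg adjusted over genes, and called under 0.05. An exact permutation test of 3 mice against 3 was not used, since its smallest p is 0.1. Arrays carry no read depth, and their number limits the precision. Correlations between arrays were 0.987 to 0.992 within groups and 0.983 to 0.989 between them. On simulated data with 200 of 22180 genes changed 2-fold, 92.5% were recovered for double KO against SMRT KO, 88.5% for double KO against control and 92% for SMRT KO against control; at 1.5-fold it was 65%, 61.5% and 73.5%.

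The 9 genes, the gene lists and the tests were chosen with earlier results of these data known. Of each of the 5 other lists, the genes called in any comparison are named, or the 2 with the smallest p where none was called. The plan covered the cell type markers too, but in marker lists without a call no gene is named. Other names were chosen after their values were seen. Genes most like Sult1e1 and Sult2a3 were the 5 with the highest Pearson correlation over 9 arrays. Protein sequences were not used here. The alternatives were fits of only the groups compared, a replicate block, leaving out each mouse, a filter on dim genes, cyclic loess, a trended robust variance, array weights, averaged probe sets, and adjustment over all deposited probe sets, controls included. The lower bounds and the motif TNATGAACT were added after the data were seen.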

Additional observations from a re-analysis of the deposited data

How the results depend on the processing

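The direction of every log2 difference of the 6 genes called in double KO against SMRT KO livers was the same in that comparison in every alternative run. Only cyclic loess, array weights and leaving out a double KO or SMRT KO mouse can change that difference. The other alternatives leave it as it is and change only the spread or the adjustment. Averaging probe sets changes no value of these genes, which have 1 each. Against SMRT KO livers Sult1e1, Sult2a5 and Sult2a7 were called in each alternative that tested them, with adjusted p of at most 0.0158, 0.0426 and 0.0224; the filter on dim genes left out Sult1e1 and Sult2a7. The count of 6 called genes became 3 without double KO replicate 1, without double KO replicate 2 and without SMRT KO replicate 1, with a range of 3 to 6 over the mice left out, 5 with only the groups compared, 4 over all probe sets and 4 of 7 tested with dim genes left out. In SMRT KO against control livers the count stayed 0 in all alternatives. Values near background fell to 1 with the receptor median as the limit, against 18.

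The called genes of the 5 other lists numbered 1 in double KO against control livers. That count was 0 with only the groups compared and over all probe sets, 2 with cyclic loess and with the trended robust variance, 3 with array weights and with dim genes left out, and 0 to 1 over the mice left out. In double KO against SMRT KO livers it was 3, with a range of 1 to 4 over the mice left out and 1 without double KO replicate 2. In SMRT KO against control livers it was 0, and 0 to 1 over the mice left out, with 1 without control replicate 2. Small differences turned sign. In double KO against control livers Sult1a1 had 0.058 without control replicate 1 (range over the mice left out -0.27 to 0.058), Sult1d1 -0.059 without control replicate 2 (-0.059 to 0.18) and Sult1b1 0.024 without control replicate 3 (-0.16 to 0.024). For SMRT KO against control livers Sult1a1 had -0.023 without SMRT KO replicate 3 and -0.14 without control replicate 2 (-0.14 to 0.18). The causes of these changes were not tested.

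The titles number the mice 1 to 3 in each group, and the main fit did not use the numbers as pairs. Deviations of same-numbered arrays from their group means correlated at -0.085 to 0.117, above 0.1 in 1 of 9 pairs, and 4 of 9 arrays correlated best with their own number. So few arrays cannot show whether the numbers mark pairs or batches. With the replicate block 5 of the 9 genes were called in double KO against SMRT KO livers, since Sult2a1 had an adjusted p of 0.0583, and 0 in SMRT KO against control livers. Cyclic loess moved the median of all genes by less than 0.01. Limiting the promoter window to the 250 bases before the start gave 14.02% of windows with AGGTCA, 7.02% with TTCNNNGAA, 6.02% with CACGTG, 4.46% with TGACTCA, 0.383% with CAAAGTCCA and 0.788% with TNATGAACT.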

Other observations

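Sult3a1 and Sult3a2, sulfotransferases outside the 9 genes, varied widely between mice of the knockout groups. Sult3a2 stood at 8.67, 7.43 and 9.95 in double KO livers, at 10.30, 11.08 and 8.72 in SMRT KO livers and at 9.62, 10.36 and 9.77 in control livers. Sult3a1 stood at 10.57, 10.002 and 11.25 in double KO livers, at 11.49, 11.61 and 10.89 in SMRT KO livers and at 11.15, 11.56 and 11.42 in control livers. In both genes double KO replicate 2 was the lowest of the 9 livers, and within the SMRT KO group replicate 3 was the lowest. The log2 differences of double KO against SMRT KO livers, -1.35 for Sult3a2 and -0.73 for Sult3a1, did not pass (adjusted p = 0.549 and 0.413 by limma).

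Cyp17a1, a steroid hydroxylase and lyase, and Ugt2b37, which joins glucuronic acid to steroids and other substrates, were higher without overlap in double KO livers but did not pass. Cyp17a1 stood at 12.40, 12.66 and 12.57 in double KO livers, at 11.04, 11.23 and 11.92 in SMRT KO livers and at 11.62, 10.85 and 11.81 in control livers, with a log2 difference of 1.15 against SMRT KO livers (adjusted p = 0.0999 by limma). Ugt2b37 stood at 8.95, 9.45 and 10.45 in double KO livers, at 8.01, 7.81 and 5.70 in SMRT KO livers and at 8.01, 7.62 and 7.12 in control livers. SMRT KO replicate 3 was the lowest liver for Ugt2b37 and lay near background.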
